A study of Mus musculus with 6 samples.

Results

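Imprinted genes are genes of which mainly one parental copy is transcribed. The results below cover 40 of them, chosen by symbol from a list of known imprinted genes, out of 33274 gene rows in the deposited count table. Each symbol had 1 row. The allele given for each gene is background knowledge, since counts per gene hold no information on the parental copy. By that knowledge 22 members are expressed from the paternal allele, 13 from the maternal allele or with a maternal bias in brain, and 5 from an allele that depends on the isoform or tissue (Grb10, Gnas, Igf2r, Blcap and Inpp5f).

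Gene expression was measured by poly(A) RNA-seq in the cerebral cortex of 6 wild type female mice of the outbred ICR stock, aged 6 weeks. These were grandoffspring (F2) of males that received either methylphenidate, a blocker of dopamine and noradrenaline reuptake, given under the skin at 15 mg/kg on each of 21 days from the age of 6 weeks, or saline in the same way at 10 mL/kg. All mothers and grandmothers were untreated, and descent ran through a son of the treated male in each case. Each lineage had 3 libraries, 1 per mouse, named here by lineage and replicate number. The sources used here do not say which mice shared a litter or a grandsire, so each p-value reflects the variation among these 6 mice and no more.

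Imprinted genes lie in clusters, each under the control of a region whose DNA methylation is set differently in the sperm and the egg and then kept in body cells. Within a cluster some genes are read from the paternal copy and others, often long noncoding RNAs, from the maternal copy, so that neighbours can depend on opposite states of the same control region. In brain many imprinted genes are most active in the hypothalamus and other deep nuclei, where they bear on growth, feeding and maternal care, and Igf2 is known for its expression in choroid plexus and meninges.

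Total counts per library lay between 23896752 and 28120640. Levels are given as CPM, a gene's counts scaled by the effective library size. Where no read was counted, up to 3 counts remain possible from counting error alone, equal to 0.105 to 0.124 CPM. The 8 markers of cortical excitatory neurons summed to 1523 to 1793 CPM in every library. The groups differed in markers of striatum and of hypothalamus and basal forebrain. The 12 markers of striatal projection neurons summed to 455, 386 and 357 CPM in saline replicates 1 to 3 and to 726, 433 and 922 CPM in methylphenidate replicates 1 to 3, with 10 of the 11 tested higher on average in that lineage. The 16 markers of hypothalamus and basal forebrain summed to 76.0, 69.7 and 75.5 CPM against 130, 162 and 192 CPM, with all 10 tested members higher on average in the methylphenidate lineage and 1, Hap1, past the threshold. Hap1 alone held 65.4, 63.5 and 66.8 CPM of this sum in the saline and 102, 133 and 138 CPM in the methylphenidate libraries. Without Hap1 and Baiap3, a choice made after their values were seen, that sum was 6.01, 4.45 and 4.80 CPM against 15.1, 11.5 and 38.1 CPM. Hcrt and Sim1, defining genes of hypothalamic neurons, had 0 counts in all 3 saline libraries and at most 4 in a methylphenidate library. Other hypothalamic genes of the list reached higher counts. In saline against methylphenidate replicates 1 to 3, Avp had 0, 0 and 10 against 36, 2 and 21 counts. Pmch had 0, 2 and 1 against 3, 5 and 17, Oxt 0, 3 and 4 against 0, 0 and 6, and Pomc 49, 66 and 36 against 38, 55 and 471. The 7 markers of thalamus summed to 194, 189 and 178 CPM in the saline and 234, 196 and 182 CPM in the methylphenidate libraries. These sums overlapped, with 6 of the 7 markers higher on average in the methylphenidate lineage. Fewer cells of a type and less RNA per cell cannot be told apart in tissue libraries.

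The promoters of Nnat, Dlk1, Magel2 and Ndn, the 4 members with an unadjusted p under 0.05 below, are shown so that their letters can be compared. They are RefSeq promoter windows on the GRCm38.p6 build, from 250 bases before to 50 after the start site, written 5′ to 3′ on the strand of the gene. Capitals mark the letters TGCCGC, on either strand, which is the core that the imprint-keeping protein ZFP57 recognises when methylated. The Nnat window is chr2:157559828-157560127, the Dlk1 window chr12:109452573-109452872, the Magel2 window chr7:62376729-62377028 and the Ndn window chr7:62348027-62348326, all on the plus strand.
Nnat: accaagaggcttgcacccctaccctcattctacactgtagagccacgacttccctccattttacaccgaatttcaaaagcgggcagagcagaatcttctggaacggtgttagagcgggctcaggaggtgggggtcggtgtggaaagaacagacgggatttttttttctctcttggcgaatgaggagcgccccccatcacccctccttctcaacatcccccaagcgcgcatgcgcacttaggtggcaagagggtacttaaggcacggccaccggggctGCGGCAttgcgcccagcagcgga
Dlk1: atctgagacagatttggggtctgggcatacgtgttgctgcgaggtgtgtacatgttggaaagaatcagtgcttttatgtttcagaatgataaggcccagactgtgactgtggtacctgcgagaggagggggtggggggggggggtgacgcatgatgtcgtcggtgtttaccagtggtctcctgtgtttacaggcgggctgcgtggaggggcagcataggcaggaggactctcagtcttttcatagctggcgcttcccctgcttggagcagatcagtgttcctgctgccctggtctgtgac
Magel2: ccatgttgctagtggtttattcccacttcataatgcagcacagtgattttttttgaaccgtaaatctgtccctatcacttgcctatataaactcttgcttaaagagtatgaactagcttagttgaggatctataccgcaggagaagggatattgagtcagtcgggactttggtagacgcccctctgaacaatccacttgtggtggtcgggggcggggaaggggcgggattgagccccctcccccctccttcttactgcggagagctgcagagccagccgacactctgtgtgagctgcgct
Ndn: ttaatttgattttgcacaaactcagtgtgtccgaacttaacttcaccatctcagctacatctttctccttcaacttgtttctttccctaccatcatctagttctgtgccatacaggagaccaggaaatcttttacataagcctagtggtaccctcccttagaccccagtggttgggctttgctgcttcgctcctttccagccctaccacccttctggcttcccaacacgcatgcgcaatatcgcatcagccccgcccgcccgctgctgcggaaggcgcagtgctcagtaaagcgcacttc

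The Nnat window holds 17 CpG pairs and 1 match to TGCCGC, while the windows of Dlk1, Magel2 and Ndn hold 9, 10 and 11 CpG pairs and no match. RefSeq windows were found for 32 of the 40 members, 49 windows in all, with a median of 15 CpG pairs, against 7 over all 32851 windows. TGCCGC occurred in the windows of 13 of these 32 genes, or 40.6%, against 13.1% of the 27025 genes with a window. By window the shares were closer, at 28.6% of the 49 against 11.6% of all windows. TGCCGC itself holds a CpG pair, and the part of CpG content in these shares was not tested. The 13 genes were Igf2, Mest, Nap1l5, Nnat, Plagl1, Snrpn, Zdbf2, Calcr, Commd1, Copg2, Meg3, Zim1 and Grb10. A match is only a stretch of letters, and methylation was not measured.

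The members covered a wide range of levels in cortex. Levels between genes were compared as CPM per kb of annotated exon, with exon lengths from the GENCODE M21 annotation, averaged over the 6 libraries. Snrpn, which encodes a core protein of the neuronal spliceosome, was highest at 351 CPM per kb, above 99.7% of tested genes. It was followed by the nucleosome assembly gene Nap1l5 at 155, the maternally expressed long noncoding RNA Meg3 at 150, Gnas, which encodes the stimulatory G protein subunit, at 95.5 and the long noncoding RNA Peg13 at 60.8 CPM per kb. Ndn and Nnat came next at 45.6 and 44.8 CPM per kb, and these neighbours in the order are close, as Nnat differed between the lineages by more than that gap. At the low end, Dlk1 had 0.386 and Magel2 0.307 CPM per kb, levels above only 11.5% and 8.88% of tested genes. Kcnq1ot1, at 0.234 CPM per kb, has an annotated exon length of 93.09 kb, so its level per length depends on how much of that length is read.

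**Figure D1:**
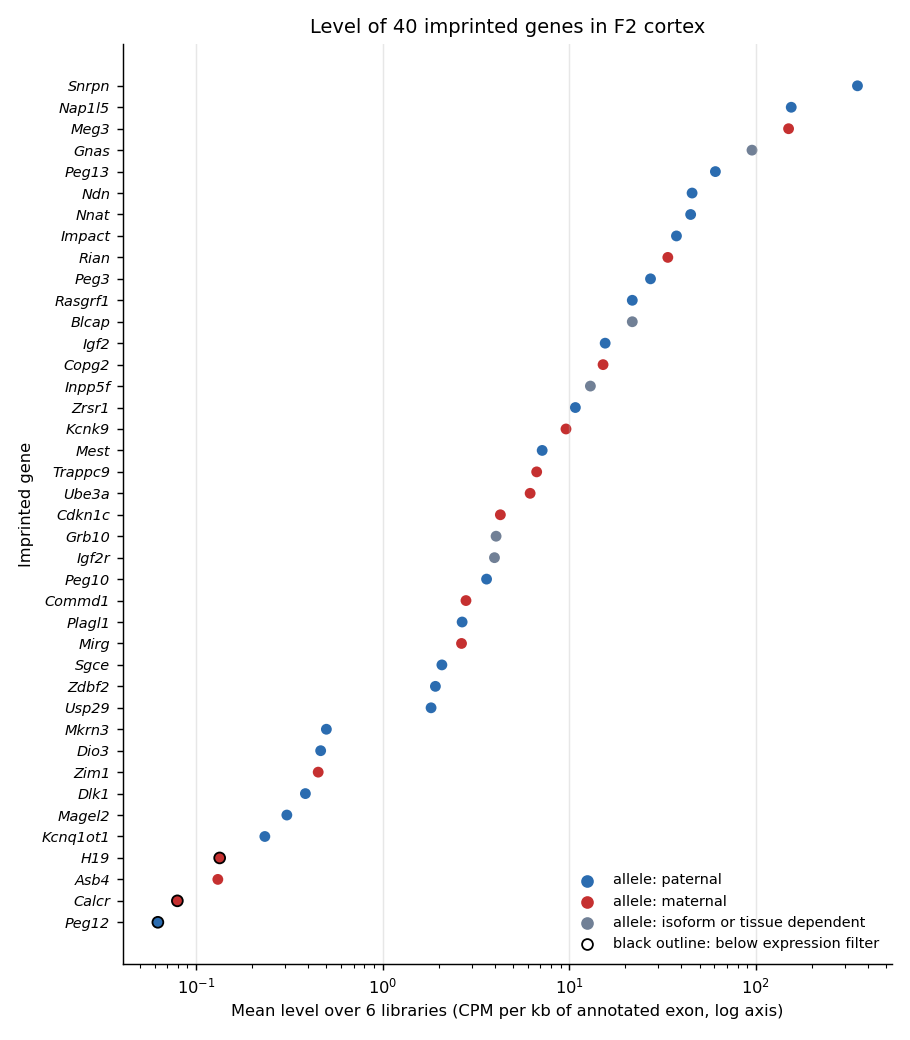
Mean level of each of the 40 imprinted genes over the 6 cortex libraries, in CPM per kb of annotated exon on a log axis, coloured by the allele known to be expressed, with genes below the expression filter outlined in black. Snrpn stands highest at 351 and Peg12 lowest at 0.0625 CPM per kb.

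Of the 40 members, 37 passed the filter on low counts and were tested. Dio3 passed with all 3 methylphenidate but only 2 saline libraries at the filter's minimum of 0.4 CPM, and Asb4 passed with 2 libraries of each group. H19, Calcr and Peg12 did not pass. H19, the long noncoding RNA beside Igf2, had 5 to 17 counts in the saline and 5 to 8 among methylphenidate descendants. Peg12, a gene of the FRAT family, had 5, 6 and 5 counts among saline descendants and 3, 2 and 4 among methylphenidate descendants, also without overlap in CPM. Calcr, the calcitonin receptor gene, had 4, 0 and 3 counts among saline descendants and 13, 10 and 17 among methylphenidate descendants, so that the groups did not overlap, at levels of at most 0.700 CPM.

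A single member, Nnat, differed between the lineages at an edgeR adjusted p under 0.05, and it was higher in the methylphenidate lineage. Over all 18327 genes tested 5 were called, or 0.0273%, with 0.0218% higher and 0.00546% lower. At an unadjusted p under 0.05 there were 4 members, Nnat, Dlk1, Magel2 and Ndn, of 37, or 10.8%, against 7.51% of all genes tested. All 4 were higher in the methylphenidate lineage and all 4 are paternally expressed, while 4.2% of all tested genes were higher and 3.31% lower at that p. None of the 11 tested maternally expressed members and none of the 5 with a variable allele reached it. The median log2 fold change (log2 change in what follows, methylphenidate minus saline) was 0.03 over the 21 tested paternally expressed members and 0.05 over the 11 maternally expressed ones, against 0.00 over all genes tested. The log2 change lay within 0.25 of 0 in 30 of the 37 members, or 81.1%, and in 74.4% of all genes. The lineages did not overlap in 10 of the 37, against 13.5% of all genes tested, with 8 of the 10 among the paternally expressed. Of the 10, 6 were higher, against 6.97% of all genes, and 4 lower, against 6.51%. Whether paternally and maternally expressed members differ was not tested.

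**Figure D2:**
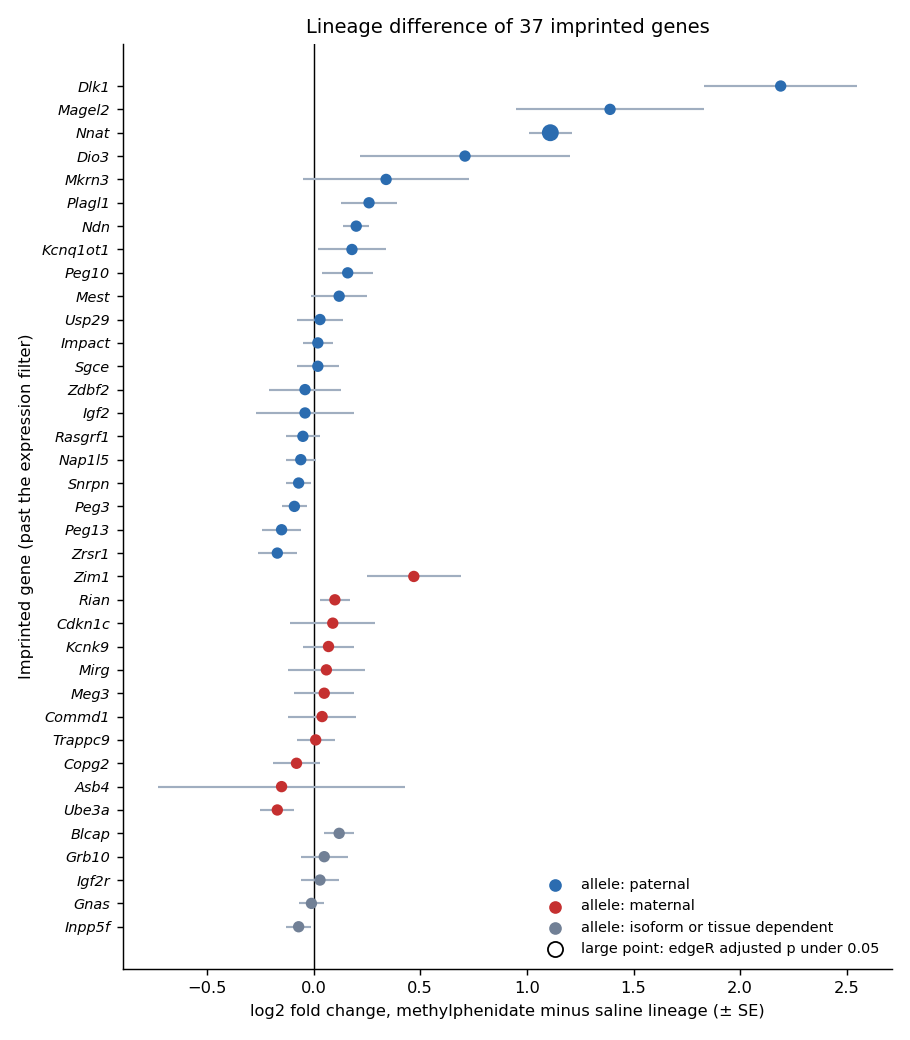
Log2 fold change, methylphenidate minus saline lineage, of the 37 tested imprinted genes with its standard error as a bar, grouped and coloured by the allele known to be expressed. Dlk1 at 2.19, Magel2 at 1.39 and Nnat at 1.11 lie farthest right, and the large point marks Nnat, the only one with an edgeR adjusted p under 0.05.

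Nnat (ENSMUSG00000067786), on chromosome 2, encodes neuronatin, a small membrane protein of the endoplasmic reticulum in developing neurons. Its level was 47.0, 59.5 and 48.8 CPM in saline replicates 1 to 3 and 114, 119 and 102 CPM in methylphenidate replicates 1 to 3. Every methylphenidate library lay above every saline library. Nnat rose by 1.11 on the log2 scale (SE 0.10, edgeR adjusted p = 0.00776). The log2 change lay between 1.05 and 1.23 when any 1 library was left out. Methylphenidate replicate 2, had the highest Nnat level of the 6 libraries and the lowest striatal marker sum of its group, 433 CPM. That sum lay within the saline range, but 6 of the 11 tested striatal markers were higher in every methylphenidate library than in any saline library, this one included. The mean centred log2 level of the striatal list was -0.10 in that library, against -0.18, -0.91 and -0.90 in saline replicates 1 to 3. The sum of the hypothalamic and basal forebrain markers, most of it Hap1, was above the saline range in all 3 methylphenidate libraries. Taken singly, 6 of the 10 tested markers of that list were. The part of either marker list in the Nnat difference was not tested.

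Nnat lies within an intron of Blcap, a gene on the opposite strand some of whose transcripts in brain favour the maternal copy. Blcap had 61.0, 64.7 and 64.5 CPM among saline descendants and 64.0, 70.4 and 72.7 CPM among methylphenidate descendants. The ranges overlapped, and the log2 change was 0.12 (SE 0.07, edgeR adjusted p = 0.765). The 2 genes share no exon bases in GENCODE M21. The count ratio of Nnat to Blcap within a library, which needs no scaling between libraries, was 0.770, 0.920 and 0.756 in the saline and 1.79, 1.69 and 1.41 in the methylphenidate lineage. Blcap thus had more counts than Nnat in each saline library and fewer in each methylphenidate library (difference of log2 ratios 1.00, exact permutation p = 0.1, two-sided, adjusted p = 0.2 over 12 ratios, where 0.1 is the smallest p that 3 against 3 libraries can give).

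**Figure D3:**
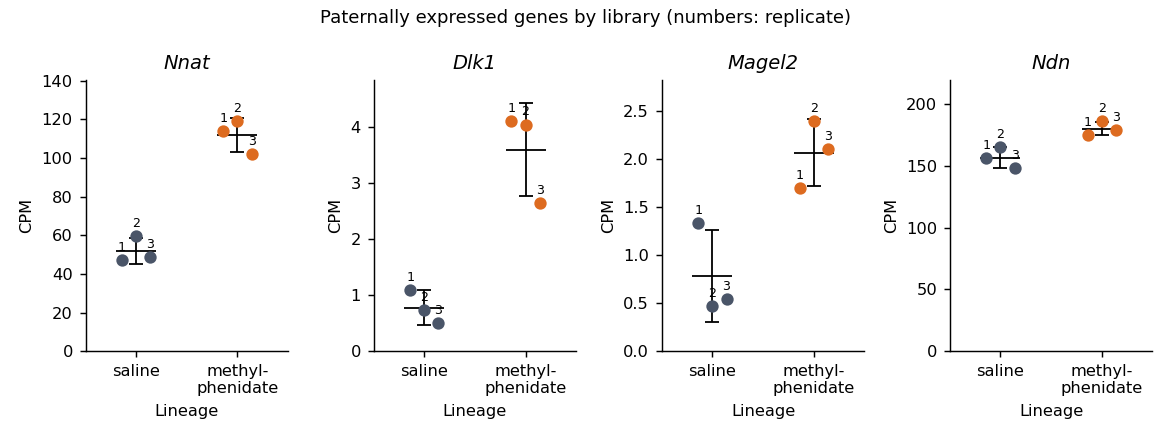
Level in CPM of Nnat, Dlk1, Magel2 and Ndn in each library, by lineage, with the replicate number beside each point and the mean and SD of the 3 libraries as a line and bar. In each gene the 3 methylphenidate libraries lie above the 3 saline libraries, with Ndn at 165 CPM in saline replicate 2 and 175 CPM in methylphenidate replicate 1 where they come nearest.

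The Dlk1-Dio3 cluster on chromosome 12 holds the paternally expressed genes Dlk1, a transmembrane ligand of the Notch family that restrains differentiation, and Dio3, an enzyme that inactivates thyroid hormone. Dlk1 (ENSMUSG00000040856) had 29, 19 and 12 counts in the saline libraries, or 1.10, 0.742 and 0.496 CPM. In the methylphenidate libraries it had 99, 115 and 64 counts, or 4.10, 4.04 and 2.64 CPM. The groups were well apart, although at low counts. The log2 change of Dlk1 was 2.19 (SE 0.36), with an edgeR adjusted p of 0.111, so it did not pass the threshold. DESeq2, which called 149 genes or 0.756% of those it tested, gave Dlk1 an adjusted p of 0.000181. The edgeR adjusted p lay between 0.136 and 0.294 without any 1 library.

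Dlk1 and the sum of the hypothalamic and basal forebrain markers both separated the lineages, but their order within the methylphenidate lineage differed. Methylphenidate replicate 3 had the highest hypothalamic and basal forebrain sum, 192 CPM, most of it Hap1 at 138 CPM, and the lowest Dlk1 level of its group. Without Hap1 and Baiap3 the sum was also highest there, at 38.1 CPM against 15.1 and 11.5 CPM in methylphenidate replicates 1 and 2. Trh, the thyrotropin-releasing hormone gene of that list, had 2.86, 4.67 and 1.36 CPM in methylphenidate replicates 1 to 3. In saline replicates 1 to 3 it had 0.571, 0.117 and 0.372 CPM. Trh was the only tested marker of the list that was lowest in methylphenidate replicate 3. Within that lineage Pomc, Chat, Slc18a3, Slc5a7, Nkx2-1 and Hap1 were highest in replicate 3, Agrp and Baiap3 in replicate 2 and Avp in replicate 1. The part of these markers in the Dlk1 difference was not tested.

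Dio3 had 7, 26 and 21 counts among saline descendants and 34, 31 and 25 among methylphenidate descendants. In CPM the groups did not overlap, but only narrowly, with 1.02 CPM in saline replicate 2 and 1.03 CPM in methylphenidate replicate 3, and the log2 change was 0.71 (SE 0.49, edgeR adjusted p = 0.798). It lay between 0.32 and 1.05 without any 1 library, the lower value being that without saline replicate 1. Rtl1, a retrotransposon-derived gene of the same cluster that is also paternally expressed and is no member, was picked after its values were seen. It had 3.20, 2.19 and 4.92 CPM in the saline and 5.09, 5.30 and 7.04 CPM in the methylphenidate lineage (log2 change 0.76 with SE 0.30, edgeR adjusted p = 0.608).

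The maternally expressed noncoding RNAs of the cluster were far more abundant and close between the lineages. Meg3 had 2665 ± 498 CPM in the saline and 2763 ± 406 CPM in the methylphenidate lineage (SD, n = 3 per group; log2 change 0.05 with SE 0.14). Rian, a host of small nucleolar RNAs and microRNAs, had 595 ± 51.1 and 636 ± 26.2 CPM (log2 change 0.10 with SE 0.07). Mirg, a microRNA host, had 18.9 ± 4.99 and 19.7 ± 2.18 CPM (log2 change 0.06 with SE 0.18). The small RNAs that these hosts yield are not measured by poly(A) libraries of this kind. The count ratio of Dlk1 to Rian was 0.00186, 0.00141 and 0.000804 in the saline and 0.00636, 0.00670 and 0.00406 in the methylphenidate lineage, again without overlap (difference of log2 ratios 2.12, exact permutation p = 0.1, adjusted p = 0.2).

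The Prader-Willi and Angelman cluster on chromosome 7 held the remaining members with an unadjusted p under 0.05. Magel2 and Ndn are neighbouring genes of the MAGE family, paternally expressed and active in hypothalamic neurons. Magel2 (ENSMUSG00000056972) had 35, 12 and 13 counts in the saline libraries, or 1.33, 0.469 and 0.538 CPM, and 41, 68 and 51 counts among methylphenidate descendants, or 1.70, 2.39 and 2.10 CPM. Saline replicate 1 was closest to the methylphenidate range. The log2 change of Magel2 was 1.39 (SE 0.44, unadjusted p = 0.0101, edgeR adjusted p = 0.522) and lay between 1.13 and 2.03 without any 1 library, the higher value being that without saline replicate 1.

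Ndn (ENSMUSG00000033585), which encodes necdin, a growth-restraining protein of mature neurons, was abundant and differed by little. It had 156, 165 and 148 CPM among saline descendants and 175, 186 and 179 CPM among methylphenidate descendants. The groups did not overlap, and the log2 change was 0.20 (SE 0.06, unadjusted p = 0.0104, edgeR adjusted p = 0.526). Methylphenidate replicate 2 had the highest level of Nnat, Magel2 and Ndn alike. Baiap3, a vesicle release gene among the hypothalamic markers, was also highest there, at 17.2 CPM against 13.6 and 15.9 CPM in methylphenidate replicates 1 and 3 and 4.61, 1.72 and 3.97 CPM in the saline libraries. The sum of the list did not follow that order: without Hap1 and Baiap3 it was lowest of the methylphenidate libraries in replicate 2, at 11.5 CPM, and highest in replicate 3, at 38.1 CPM. Pomc alone held 19.4 CPM of the latter. Among those libraries Trh and Agrp were highest in replicate 2, at 4.67 and 0.738 CPM, and Chat and Slc5a7 lowest there, at 0.843 and 1.65 CPM. The part of this list in the Magel2 and Ndn differences was not tested.

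The other members of that cluster showed no such difference. Snrpn had 760, 796 and 778 CPM in the saline and 757, 751 and 710 CPM in the methylphenidate lineage, slightly lower without overlap (log2 change -0.07 with SE 0.06, edgeR adjusted p = 0.837). Mkrn3, a makorin gene that restrains the onset of puberty, had 1.12 ± 0.367 and 1.42 ± 0.371 CPM (SD, n = 3 per group; log2 change 0.34 with SE 0.39). Ube3a, the ubiquitin ligase gene read from the maternal copy in neurons, had 131, 135 and 138 CPM in the saline and 134, 109 and 118 CPM in the methylphenidate lineage (log2 change -0.17 with SE 0.08, edgeR adjusted p = 0.685). Snhg14, the antisense transcript that silences the paternal Ube3a copy, had a log2 change of 0.08 (SE of 0.09), and its exons overlap those of Ube3a, so reads of this pair cannot be told apart without a stated strand setting.

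The ratios to Ube3a within that cluster differed in whether the lineages overlapped, and no test compared them with each other. Ube3a, their shared denominator, itself had a log2 change of -0.17 (SE 0.08). The count ratio of Ndn to Ube3a was 1.19, 1.23 and 1.07 in the saline and 1.31, 1.70 and 1.52 in the methylphenidate lineage, without overlap (difference of log2 ratios 0.37, exact permutation p = 0.1, adjusted p = 0.2). The ratio of Snrpn to Ube3a overlapped, at 5.80, 5.89 and 5.62 against 5.67, 6.86 and 6.03 (difference of log2 ratios 0.10, exact permutation p = 0.4, adjusted p = 0.533).

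**Figure D4:**
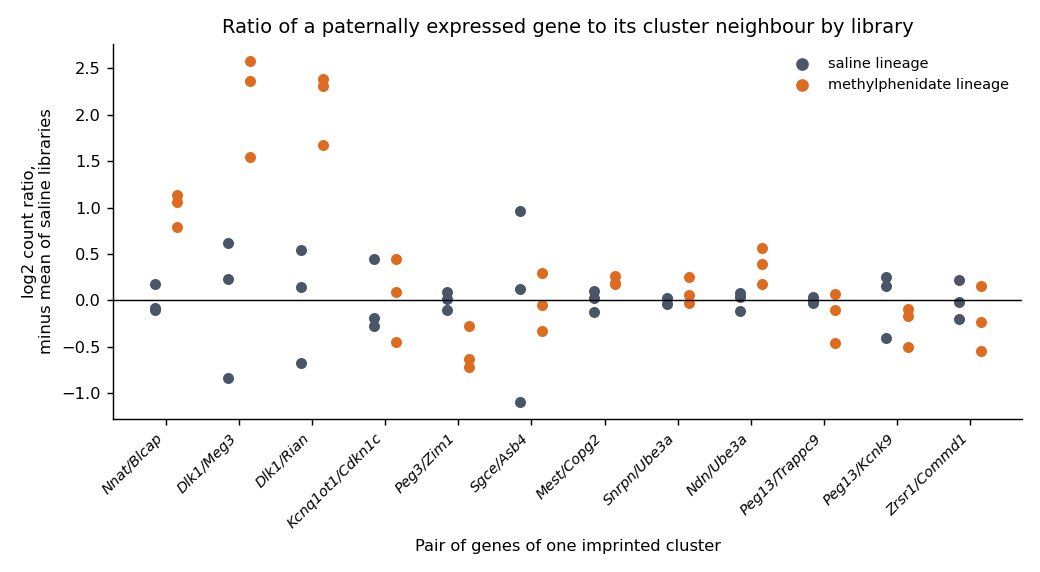
Log2 count ratio of a paternally expressed gene to a neighbour of the same cluster in each library, minus the mean of the 3 saline libraries of that pair, for 12 pairs, with saline libraries in grey and methylphenidate libraries in orange. The neighbour is a maternally expressed gene in each pair but that of Nnat with Blcap, and the pairs with Dlk1 and Nnat lie farthest above 0 in the methylphenidate lineage.

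In the Peg3 cluster, also on chromosome 7, the paternally and maternally expressed genes stood in the opposite relation. Peg3, a zinc-finger gene active in brain and linked to maternal behaviour, had 366, 365 and 395 CPM in the saline and 347, 347 and 365 CPM in the methylphenidate lineage (log2 change -0.09 with SE 0.06, edgeR adjusted p = 0.792). Zim1, a maternally expressed zinc-finger gene beside it, had 2.97, 3.20 and 3.02 CPM against 3.44, 4.67 and 4.61 CPM (log2 change 0.47 with SE 0.22, edgeR adjusted p = 0.675). Neither gene overlapped between the groups, but Peg3 only by less than the rounding, at 365 CPM in both saline replicate 2 and methylphenidate replicate 3. The count ratio of Peg3 to Zim1 was 123, 113 and 130 in the saline and 100, 74.0 and 78.7 in the methylphenidate lineage (difference of log2 ratios -0.54, exact permutation p = 0.1, adjusted p = 0.2). Usp29, a deubiquitinase gene that shares the promoter region of Peg3, had 32.6 ± 1.92 and 33.3 ± 4.64 CPM (SD, n = 3 per group; log2 change 0.03 with SE 0.11).

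Over the 12 ratios computed, 6 did not overlap between the lineages, with the paternally expressed gene relatively higher in 5 of them, although Dlk1 enters 2 and Ube3a is shared by Ndn and Snrpn. No share over all genes was computed for ratios, so the 13.5% of single genes without overlap is not a background for them. Nnat, Dlk1, Ndn, Peg3 and Zim1, which enter ratios without overlap, also did not overlap as single genes. The Mest to Copg2 ratio, of a hydrolase-fold gene to a coatomer subunit gene, was the remaining one, at 0.345, 0.310 and 0.361 against 0.383, 0.402 and 0.382 (difference of log2 ratios 0.20, exact permutation p = 0.1, adjusted p = 0.2). Mest and Copg2 overlap by 912 exon bases on opposite strands, so the same limit holds, and neither differed by itself, with log2 changes of 0.12 for Mest (SE 0.13) and -0.08 for Copg2 (SE 0.11). The pairs in the Kcnq1ot1, Peg10-Sgce and Peg13-Kcnk9 clusters and of Zrsr1 with Commd1 all overlapped between the lineages, as did Snrpn with Ube3a.

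Igf2, the paternally expressed growth factor gene, varied widely within each group and showed no lineage difference past the threshold. It had 64.9, 116 and 90.9 CPM among saline descendants and 108, 96.1 and 59.7 CPM among methylphenidate descendants (log2 change -0.04 with SE 0.23, edgeR adjusted p = 0.981). Its average coefficient of variation within a group was 28.4%, where Peg3, Snrpn, Ndn and Gnas lay at 3.84, 2.96, 4.42 and 4.37%. The 10 choroid plexus markers summed to 314, 1347 and 938 CPM in saline replicates 1 to 3 and to 1043, 536 and 239 CPM in methylphenidate replicates 1 to 3. The library highest in Igf2, saline replicate 2, was highest in these markers, and methylphenidate replicate 3 and saline replicate 1 were lowest in both. The markers of meningeal and perivascular fibroblasts summed to 178, 190 and 171 CPM in saline replicates 1 to 3. In methylphenidate replicates 1 to 3 they summed to 187, 200 and 146 CPM, a narrower range that was also lowest in replicate 3. All 10 choroid plexus markers had a log2 change below 0, with a median of -0.61, and none had an unadjusted p under 0.05. The part of either marker list in the Igf2 level was not tested.

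**Figure D5:**
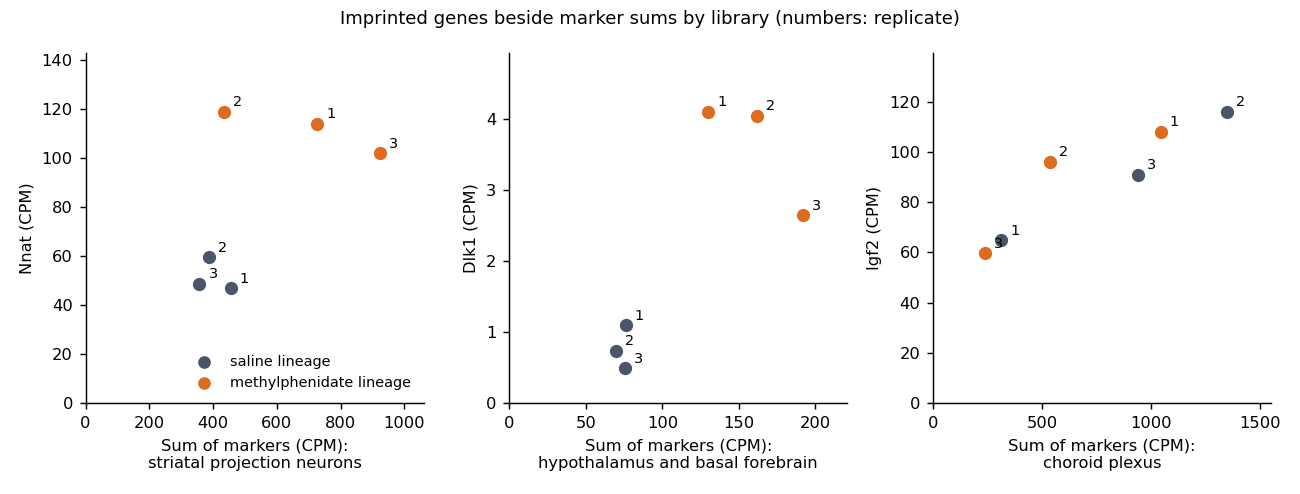
Level of Nnat, Dlk1 and Igf2 in each library (CPM) against the summed CPM of a marker list, with saline libraries in grey, methylphenidate libraries in orange and the replicate number beside each point. Most of the hypothalamic and basal forebrain sum is Hap1 in every library. Nnat is highest in methylphenidate replicate 2, whose striatal sum of 433 CPM lies within the saline range although its mean centred log2 level of the list, -0.10, lies above it, Dlk1 and the hypothalamic and basal forebrain sum both separate the lineages, and Igf2 is lowest in the 2 libraries with the lowest choroid plexus sums, 239 and 314 CPM.

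Igf2r, which clears IGF2 protein from outside the cell, had 36.7 ± 2.46 and 37.4 ± 2.38 CPM (SD, n = 3 per group; log2 change 0.03 with SE 0.09). Cdkn1c, a maternally expressed inhibitor of the cell cycle, had 8.45 ± 2.17 and 8.99 ± 0.742 CPM (log2 change 0.09 with SE 0.20). Kcnq1ot1, the paternally expressed antisense RNA of its cluster, had 20.4 ± 1.41 and 23.2 ± 5.29 CPM (log2 change 0.18 with SE 0.16). The Kcnq1ot1 values overlapped, with methylphenidate replicate 2 lowest of all libraries at 17.4 CPM and replicate 3 highest at 27.7 CPM.

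In the Peg10-Sgce cluster on chromosome 6, Peg10, a gene derived from a retrotransposon, had 22.7 ± 1.67 and 25.4 ± 3.41 CPM (SD, n = 3 per group; log2 change 0.16 with SE 0.12). Sgce, the sarcoglycan gene of myoclonus dystonia, had 22.0 ± 1.53 and 22.2 ± 1.27 CPM (log2 change 0.02 with SE 0.10). Asb4, a maternally expressed gene of hypothalamic neurons, stayed at 6 to 24 counts in the saline and 11 to 15 among methylphenidate descendants, at 0.540 ± 0.362 and 0.487 ± 0.121 CPM (log2 change -0.15 with SE 0.58).

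In the Peg13-Kcnk9 cluster on chromosome 15, Peg13 had 313, 310 and 283 CPM in the saline and 278, 303 and 235 CPM in the methylphenidate lineage (log2 change -0.15 with SE 0.09, edgeR adjusted p = 0.765). Trappc9, a vesicle tethering gene whose intron holds Peg13, had 53.0 ± 2.47 and 53.4 ± 5.88 CPM (SD, n = 3 per group; log2 change 0.01 with SE 0.09). Kcnk9, a background potassium channel read from the maternal copy, had 115 ± 23.3 and 121 ± 3.75 CPM (log2 change 0.07 with SE 0.12). None of the 3 passed the threshold.

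Zrsr1, a splicing factor retrogene on chromosome 11, had 50.5, 52.8 and 51.1 CPM in the saline and 49.4, 46.2 and 41.1 CPM in the methylphenidate lineage, without overlap (log2 change -0.17 with SE 0.09, edgeR adjusted p = 0.698). It lies within Commd1, a regulator of copper transport, which had 16.3 ± 2.03 and 16.9 ± 3.19 CPM (SD, n = 3 per group; log2 change 0.04 with SE 0.16). Gm28048, an annotated protein-coding gene that shares 294 exon bases with Commd1, was singled out after its values were seen. It had 0, 1 and 0 counts among saline descendants and 72, 650 and 4 among methylphenidate descendants. It did not pass the filter, and how the authors divided reads among overlapping genes is unknown here, so its counts and those of Commd1 are uncertain.

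The members outside these clusters lay close between the lineages. Plagl1, a zinc-finger gene that restrains growth, had 18.0, 18.9 and 20.2 CPM in the saline and 18.8, 26.7 and 22.6 CPM in the methylphenidate lineage (log2 change 0.26 with SE 0.13, edgeR adjusted p = 0.715). Gnas had 1072 ± 6.38 and 1066 ± 65.6 CPM (SD, n = 3 per group; log2 change -0.01 with SE 0.06). Rasgrf1, a Ras activator of neurons, had 246 ± 14.8 and 237 ± 18.8 CPM (log2 change -0.05 with SE 0.08), and Nap1l5 had 292 ± 20.1 and 279 ± 8.02 CPM (log2 change -0.06 with SE 0.07). These 3 genes are abundant in cortex, and the ranges of the lineages overlapped. Inpp5f, a phosphoinositide phosphatase gene, lay at 111, 110 and 113 CPM against 104, 105 and 108 CPM, apart but by little (log2 change -0.07 with SE 0.06, edgeR adjusted p = 0.840). Impact, a regulator of translation, had 191 ± 1.16 and 194 ± 16.1 CPM (log2 change 0.02 with SE 0.07). Grb10, an adaptor of the insulin receptor, had 36.3 ± 2.91 and 37.5 ± 4.83 CPM (log2 change 0.05 with SE 0.11). Zdbf2, a zinc-finger gene, had 24.6 ± 5.09 and 23.9 ± 4.71 CPM (log2 change -0.04 with SE 0.17). None of these passed the threshold.

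Of 40 further imprinted genes that are no members, 33 were tested and none passed the edgeR threshold, with 17 above 0 and 16 below and a median log2 change of 0.02. An edgeR unadjusted p under 0.05 was reached by 6, or 18.2%, against 7.51% of all genes tested. Of these 6, 4 were higher. The genes of smallest p were Phactr2, a phosphatase and actin regulator, with a log2 change of 0.28 (SE of 0.09, edgeR adjusted p = 0.554), and Sfmbt2, a Polycomb group gene, with one of 0.73 (SE of 0.27, edgeR adjusted p = 0.600). Of 12 genes that set or keep imprints, 10 were tested and none passed the edgeR threshold, with 5 above 0 and 5 below. At an unadjusted p under 0.05 there was 1, Ctcf, or 10.0%, against the same 7.51% of all genes tested. The members of that list with the smallest p were Ctcf, which binds unmethylated control regions, with a log2 change of -0.18 (SE of 0.07, edgeR adjusted p = 0.630), and Uhrf1, a cofactor of maintenance methylation, with one of -1.03 (SE of 0.46, edgeR adjusted p = 0.666) at 1.25 ± 0.393 and 0.605 ± 0.298 CPM.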

How the data were processed

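Poly(A) RNA was sequenced with a directional kit, per the labels' protocols. GRCm39 and the tools HISAT2 2.2.1, StringTie 2.2.1, fastp 0.23.4 and bcl2fastq 2.19 appear, without roles, in the submitters' processing notes. How reads were counted, with which annotation and strand setting, is not given in the sources. The deposited values are raw whole-number counts per Ensembl gene, which the authors paired with symbols. For a symbol with several rows the one with the highest mean count would have been used.

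The lineages were compared with edgeR 4.0.16 in R 4.3.3 (filterByExpr defaults, TMM scaling, quasi-likelihood test on group, two-sided, Benjamini-Hochberg over all 18327 genes tested, threshold 0.05). The SE of a log2 change is its size over the root of the F statistic. CPM use TMM-scaled library sizes. Count ratios had 0.5 added to both counts. Alternatives were other scalings and filters, DESeq2 1.42.0, limma-voom (limma 3.58.1), the replicate number as a block, and each library left out in turn. The test was checked on simulated data for methylphenidate against saline, with 200 changed genes among 18250 tested, and recovered 37.3% at a 1.5-fold, 58.2% at a 2-fold and 84.8% at a 4-fold change, with 8 of 128 calls false. No library repeated another of its group (chi-square per degree of freedom 13.0 to 19.9).

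Every member is reported. Those with an unadjusted p under 0.05 are given in every library, others by mean and SD, by counts where untested, or by library where a sentence compares the libraries. Of the further lists, the 2 genes of smallest p are named. The members and lists were chosen with earlier results of these data known. GENCODE M21 (GRCm38), another build than that of the counts, served for exon lengths, matched for all 40 members, and for overlaps.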

Additional observations from a re-analysis of the deposited data

How the results depend on the processing

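Nnat passed the threshold under every alternative run, and was the only member to do so in each but DESeq2, where 2 members passed, the other being Dlk1. Over all genes the count of calls was 5, 10 with total counts in place of TMM, 3 with no filter on low counts, 2 with the replicate block and 149 with DESeq2, and lay between 2 and 26 without any 1 library. The lowest of these was without methylphenidate replicate 3 and the highest without methylphenidate replicate 1. The cause was not tested. With the replicate block the log2 fold change of Nnat was 1.12 (SE 0.08, edgeR adjusted p = 0.00987). Deviations of same-numbered libraries from their group means correlated at -0.044, 0.091 and -0.024 over genes. Differently numbered libraries of the 2 lineages correlated at -0.112 to 0.134. These values gave no sign that the replicate numbers pair the samples, but they cannot exclude a pairing.

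Of the 37 members tested, 19 kept their direction under each of the 15 alternatives that tested them, among them Nnat, Dlk1, Magel2 and Ndn. Of these 19, Dio3 was not tested under the stricter filter. Of the 19, those with a log2 fold change of at least 0.15 in size that moved by over 1.5 times without 1 library were as follows: Dio3 ranged from 0.32 to 1.05, Mkrn3 from 0.10 to 0.56, Kcnq1ot1 from 0.03 to 0.35, Peg10 from 0.08 to 0.26, Plagl1 from 0.12 to 0.37, Peg13 from -0.24 to -0.06, Ube3a from -0.25 to -0.10 and Zrsr1 from -0.24 to -0.11. The other 18, none with a log2 fold change over 0.15 in size, changed sign when 1 library was left out, and their log2 fold changes then ranged as follows: Asb4 -0.52 to 0.51, Cdkn1c -0.11 to 0.23, Commd1 -0.06 to 0.19, Copg2 -0.21 to 0.02, Gnas -0.06 to 0.03, Grb10 -0.06 to 0.12, Igf2 -0.24 to 0.18, Igf2r -0.03 to 0.08, Impact -0.05 to 0.07, Kcnk9 -0.03 to 0.25, Meg3 -0.06 to 0.21, Mest -0.04 to 0.24, Mirg -0.10 to 0.28, Rasgrf1 -0.11 to 0.01, Sgce -0.03 to 0.07, Trappc9 -0.04 to 0.10, Usp29 -0.05 to 0.14, Zdbf2 -0.20 to 0.13. Asb4 was also 0.04 with limma-voom and Gnas 0.00 with total counts. Of the ratios, the difference for Sgce to Asb4 was 0.03 with 5 counts added and -0.57 to 0.46 without any 1 library, and that for Kcnq1ot1 to Cdkn1c -0.18 to 0.27. Genes of low counts, such as Dlk1, Magel2, Dio3, Asb4 and the 3 untested members, rest on few counts, and small differences in them were not detectable at this depth.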
